A study of Mus musculus with 6 samples.

Results

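Kruppel-like factors (KLF) and sphingosine-1-phosphate (S1P) receptors were followed through 9 genes picked by symbol, which are Klf2, Klf3, Klf4, Klf6, Klf7, Klf10, Klf13, S1pr1 and S1pr4, out of 26286 genes in the count tables. All 9 were found in both tables. The cells were CD4+ CD25high regulatory T cells (Treg) sorted from pooled spleens and lymph nodes of C57BL/6 mice that report Blimp-1, a transcriptional repressor of effector lymphocytes, by green fluorescent protein (GFP). GFP+ and GFP- Treg, which express or lack the reporter, were compared, with 3 libraries each, biologically independent by the design text. All 6 sample titles carry the prefix BlimpHet, so both populations share whatever allele it names, and neither the number nor the age of the pooled mice is given. In each population 1 library was made by poly(A) selection (GFP- replicate 20, GFP+ replicate 19) and 2 by an approach devised for single cells and applied to sorted populations (replicates 2 and 5 of GFP-, 1 and 4 of GFP+). Values of single-cell libraries are given below in this order.

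KLF proteins are zinc finger transcription factors that bind CACCC and GC-rich boxes in promoters. KLF2 holds naive T cells in a resting, recirculating state and drives S1pr1, whose protein lets T cells follow S1P out of lymphoid organs into lymph and blood. The factor FOXO1 promotes Klf2 transcription, and signalling through the antigen receptor shuts it down.

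Library totals ran from 15224051 to 28354321 counts, and between 13022 and 19118 genes had at least 1 count. Genes of chromosomes 3, 8 and 9 had almost no counts in the single-cell libraries. All 4 columns were 0 for 99.8%, 100% and 100% of their genes that had poly(A) counts, against 10.9% on chromosome 1. Klf2 (chromosome 8) and S1pr1 (chromosome 3) fall into this gap, so their 0 counts there say nothing about expression, and both are described in the poly(A) pair alone. The other 7 members were tested across the 6 libraries in a model with terms for population and protocol. Prdm1, the Blimp-1 gene and the check of the sort, rose by a log2 fold change of 3.93 ± 0.27 (SE, n = 3 per population). Foxp3, the defining factor of Treg, lay between 1097 and 2624 CPM (counts scaled to library size, here with TMM factors) in the 6 libraries. Of 5 tested Treg markers, out of 7 listed, 1 was higher in GFP+ libraries and 0 lower. The higher one was Ctla4 (2.09 ± 0.32, edgeR, adjusted p = 0.00305). Il2ra had -0.64 ± 0.23 (edgeR, adjusted p = 0.111). Cd3d and Cd3e lie on chromosome 9 and were not tested. Markers of myeloid cells were higher in GFP+ libraries for 13 of 13 tested genes, with a median log2 fold change of 5.29 against -0.08 for all tested genes. Their summed level over 15 genes was 16.9 to 36.0 CPM of all counts in GFP- and 1019 to 1588 CPM in GFP+ libraries, and between 0 and 4 of the 15 were at 0 in a library. Those at 0 were Fcgr1 and Vcam1 in all single-cell libraries, Itgam in GFP- replicates 2 and 5, and Cd14 in GFP- replicate 5. Fcgr1 and Vcam1 lie on chromosome 3, so their 0 counts say nothing about expression, and the single-cell sums lack both genes. Of other lineages, 1 of 5 tested B cell, 1 of 3 plasma cell and 1 of 2 erythroid markers were higher in GFP+ libraries. Lower there were 1 of 2 CD8 T cell, 1 of 2 NK cell and 1 of 1 endothelial markers. Over all tested genes 9.81% were higher and 3.68% lower, and these lists are too short to be set against that. The endothelial marker tested was Pecam1 alone, out of 5 listed. Several KLF genes are also expressed in myeloid cells, and the part of these transcripts in the results below was not tested.

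Promoter sequences are shown for Klf2 and Klf3, since both had lower levels in GFP+ Treg and the windows differ in the number of CACCC boxes. The GC-rich boxes that KLF proteins also bind were neither counted nor marked. The 250 bases before the annotated start were read 5′ to 3′ on the gene's strand from RefSeq (GRCm38.p6), which held 7 of the 9 members but neither Klf10 nor S1pr1. Capitals mark CACCC or its reverse complement GGGTG, and in Klf2 also a match to the MEF2 consensus, since MEF2 factors are known to act on this promoter.
Klf2, chr8:72318812-72319061, plus strand: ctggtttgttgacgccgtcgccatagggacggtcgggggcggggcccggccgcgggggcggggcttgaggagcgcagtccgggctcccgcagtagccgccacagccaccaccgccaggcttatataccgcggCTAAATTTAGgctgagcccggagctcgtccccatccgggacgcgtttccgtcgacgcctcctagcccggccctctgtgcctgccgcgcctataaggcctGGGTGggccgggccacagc
Klf3, chr5:64803271-64803520, plus strand: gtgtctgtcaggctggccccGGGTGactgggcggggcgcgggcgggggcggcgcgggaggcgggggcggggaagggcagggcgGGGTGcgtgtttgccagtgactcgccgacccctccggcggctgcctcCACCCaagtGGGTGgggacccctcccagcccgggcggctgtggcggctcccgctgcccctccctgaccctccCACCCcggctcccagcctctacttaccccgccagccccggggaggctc
The Klf3 window held 5 CACCC or GGGTG matches, a number reached by 0.667% of 32851 promoter windows of this length. Klf7 held 3, and 6.92% of windows held at least that many. Klf2, Klf13 and S1pr4 held 1 each, and at least 1 match was present in 52% of windows, while Klf4 and Klf6 held 0. The match to the MEF2 consensus in Klf2 read CTAAATTTAG, ran from 118 to 109 bases before the start, and a match was present in 2.92% of windows. A match of letters is a description of the sequence and not a bound site.

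Klf2 and S1pr1 were lower in GFP+ than in GFP- Treg by similar factors. Klf2 (Entrez 16598) had 13488 counts in GFP- replicate 20 and 8536 in GFP+ replicate 19, or 495 and 301 CPM of all counts. The log2 ratio was -0.72, with a 95% interval of -0.76 to -0.68 (exact binomial, counting error only). In bulk libraries fewer cells of a type and less RNA per cell cannot be told apart, which holds for each difference given here. S1pr1 (Entrez 13609) had 13875 and 8691 counts in the same libraries, or 510 and 307 CPM, with a log2 ratio of -0.73 (-0.77 to -0.69).

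Each value is 1 library against 1 and has no replicate check. Neither ratio went past 1 on the log2 scale, which 3.43% of 9124 genes with a mean of at least 10 CPM did downward and 7.27% upward. The median ratio of these genes was -0.08. A ratio as low as that of Klf2 was seen in 8.19% of them, and one as low as that of S1pr1 in 7.76%. In the authors' deposited log2 RPKM the difference was -1.004 for Klf2 and -1.28 for S1pr1. Those values are on another scale, with 13.3 for Klf2 in GFP- replicate 20, where counts and length gave 273 RPKM before taking logs. No share of genes on that scale is given, so these differences are not set against the cut of 1.

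**Figure D1:**
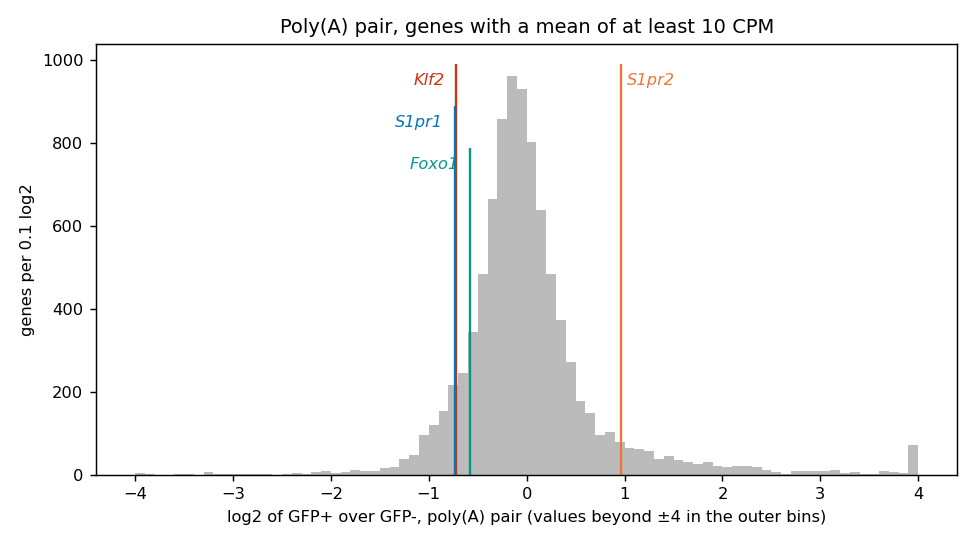
Histogram of the log2 ratio of GFP+ replicate 19 over GFP- replicate 20 (x axis, CPM of all counts) for 9124 genes, with the number of genes per 0.1 log2 on the y axis; vertical lines mark named genes. Klf2 and S1pr1 stand side by side at -0.72 and -0.73 on the low side of the distribution, Foxo1 lies at -0.58, and S1pr2 on the high side at 0.97.

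Klf3 fell and Klf10 rose in GFP+ Treg, and the other 5 tested members did not pass the threshold. Over all 10523 tested genes 3.68% were lower and 9.81% higher in GFP+ Treg (quasi-likelihood test of edgeR, adjusted after Benjamini and Hochberg at 0.05, as for every edgeR p below). With 1 member of 7 lower and 1 higher, the members are too few for a share to be set against this background.

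Klf3 (Entrez 16599) encodes a KLF protein that represses transcription through the corepressor CtBP. The poly(A) libraries had 77.4 CPM (TMM-scaled) in GFP- and 37.1 CPM in GFP+ Treg, and the single-cell libraries 27.2 and 24.8 against 11.9 and 15.4 CPM. Every GFP+ library lay below every GFP- library of its protocol, as for 19.3% of tested genes. This gave a log2 fold change of -0.98 ± 0.21 (SE, n = 3 per population), which is 1.97-fold lower (edgeR, adjusted p = 0.0168). Within protocols the log2 ratio was -1.06 in the poly(A) pair and -0.94 in the single-cell libraries. In the single-cell libraries alone, where 6.95% of 10236 genes passed, the edgeR adjusted p of Klf3 was 0.199. It was also above 0.05 when GFP- replicate 20 (0.207), GFP+ replicate 19 (0.217) or GFP+ replicate 1 (0.0866) was left out, at log2 fold changes of -0.94, -0.93 and -0.89.

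Klf10 (Entrez 21847), first described as an early gene induced by TGF-beta, encodes a factor linked in mouse T cells to Foxp3 and Tgfb1 transcription. Poly(A) levels were 18.1 CPM in GFP- and 43.4 CPM in GFP+ Treg, and single-cell levels 14.5 and 16.3 CPM against 35.9 and 48.0 CPM. After TMM scaling the populations did not overlap even across protocols, a criterion for which no share of all tested genes is given here. In CPM of all counts they did, since GFP+ replicate 1 (single-cell) lay below GFP- replicate 20 (poly(A)). Within each protocol every GFP+ library exceeded every GFP- library for Klf10, as for 21.3% of tested genes. Its log2 fold change of 1.38 ± 0.22 (SE, n = 3 per population) is 2.61-fold higher (edgeR, adjusted p = 0.00371). It was 1.26 in the poly(A) pair and 1.43 in the single-cell libraries, where the gene also passed on its own (edgeR, adjusted p = 0.0390). With any 1 library left out the edgeR adjusted p of Klf10 lay between 0.00226 and 0.0369.

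**Figure D2:**
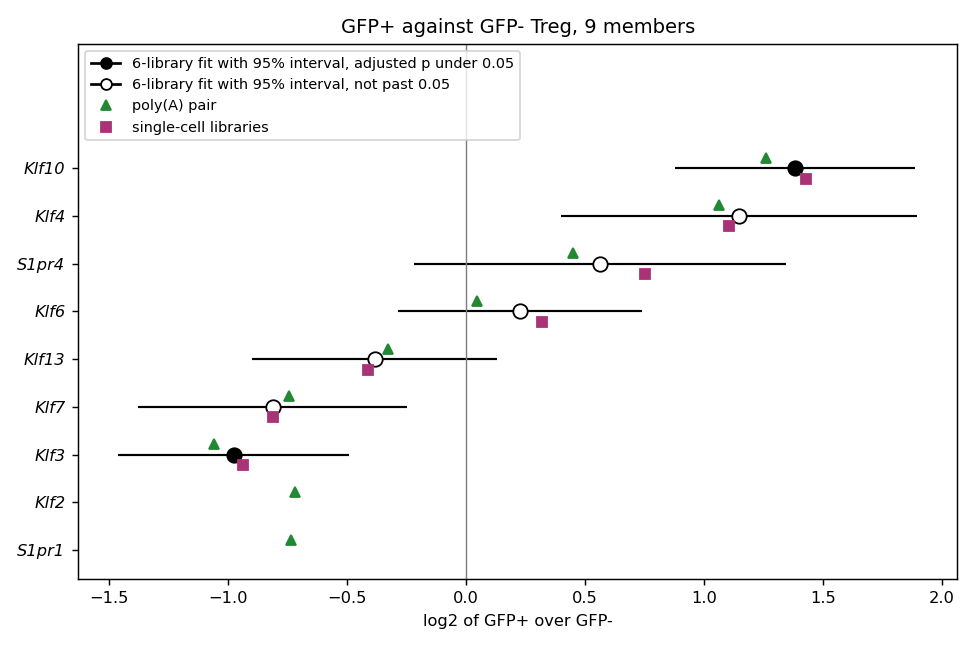
Log2 of GFP+ over GFP- (x axis) for each member (y axis). Circles with lines are the 6-library fit with its 95% interval, filled where the adjusted p is under 0.05, and triangles and squares are the ratios within the poly(A) pair and within the single-cell libraries; Klf2 and S1pr1 have the poly(A) pair of all counts only. Klf3 (-0.98) and Klf10 (1.38) are the filled circles, and for the 7 tested members both protocols lie on the same side of 0.

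Klf4 and Klf7 came close to the threshold without passing it with edgeR, and changed in opposite directions. Klf4 (Entrez 16600), a factor of monocyte differentiation that also restrains proliferation of mouse CD8 T cells, was the least abundant member, with 92 poly(A) counts in GFP- against 210 in GFP+ Treg and 9 and 8 single-cell counts against 23 and 25. These are 2.00 against 4.27 CPM and 0.652 and 1.01 against 1.88 and 1.81 CPM. Each GFP+ library was above each GFP- library of its protocol, as for 21.3% of tested genes. Klf4 had a log2 fold change of 1.15 ± 0.33, with a 95% interval of 0.40 to 1.90 (edgeR, adjusted p = 0.0533). DESeq2 (adjusted p = 0.0415) and limma-voom (adjusted p = 0.0407) put it past 0.05. The myeloid markers, higher by a median of 5.29, moved the same way in the same libraries.

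Klf7 (Entrez 93691), best known from neuron development, had 9.69 CPM in the GFP- and 5.76 CPM in the GFP+ poly(A) library, with 13.0 and 9.12 CPM against 5.73 and 6.67 CPM in the single-cell libraries. After TMM scaling each GFP+ value lay below the GFP- values of its protocol, which held for 19.3% of tested genes. In CPM of all counts the single-cell libraries overlapped (11.0 and 4.73 in GFP-, 3.99 and 5.23 in GFP+). Its log2 fold change was -0.81 ± 0.25 with a 95% interval of -1.38 to -0.25 (edgeR, adjusted p = 0.0673). DESeq2 (adjusted p = 0.0165) and limma on the authors' log2 RPKM (adjusted p = 0.0328) put Klf7 past 0.05.

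Klf6 and Klf13, abundant factors of many cell types, did not pass. Klf6 (Entrez 23849) had nearly equal poly(A) levels, 87.4 CPM in GFP- and 90.3 CPM in GFP+ Treg, and overlapping single-cell levels, 48.3 and 61.2 CPM against 60.9 and 75.7 CPM. The log2 fold change was 0.23 ± 0.22 with a 95% interval of -0.28 to 0.74 (edgeR, adjusted p = 0.566). Klf13 (Entrez 50794), a driver of late Ccl5 transcription in activated T cells, had 417 CPM in the GFP- and 332 CPM in the GFP+ poly(A) library, and 90.9 and 97.4 CPM against 74.8 and 66.9 CPM in the single-cell libraries. Each GFP+ value was below the GFP- values of its protocol, as for 19.3% of tested genes. In CPM of all counts, however, the single-cell libraries overlapped (76.9 and 50.5 in GFP-, 52.2 and 52.4 in GFP+). The log2 fold change was -0.38 ± 0.23 with a 95% interval of -0.90 to 0.13 (edgeR, adjusted p = 0.325).

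S1pr4 (Entrez 13611), an S1P receptor found mainly on blood cells, did not follow S1pr1. Its poly(A) level was 313 CPM in GFP- and 427 CPM in GFP+ Treg, and its single-cell levels were 97.4 and 236 CPM against 240 and 272 CPM. Each GFP+ library exceeded each GFP- library of its protocol, as for 21.3% of tested genes. After TMM scaling GFP- replicate 5 came close to GFP+ replicate 1. In CPM of all counts the single-cell levels were 82.4 and 122 in GFP- against 168 and 213 in GFP+ Treg. S1pr4 had a log2 fold change of 0.56 ± 0.34 with a 95% interval of -0.22 to 1.34 (edgeR, adjusted p = 0.339). Without GFP- replicate 5 the fold change was 0.97 (edgeR, adjusted p = 0.0665) and without GFP- replicate 2 it was 0.24 (edgeR, adjusted p = 0.583). In the poly(A) pair, on the scale of all counts, S1pr4 had a log2 ratio of 0.48 and S1pr1 one of -0.73, and this gap has no replicate check.

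**Figure D3:**
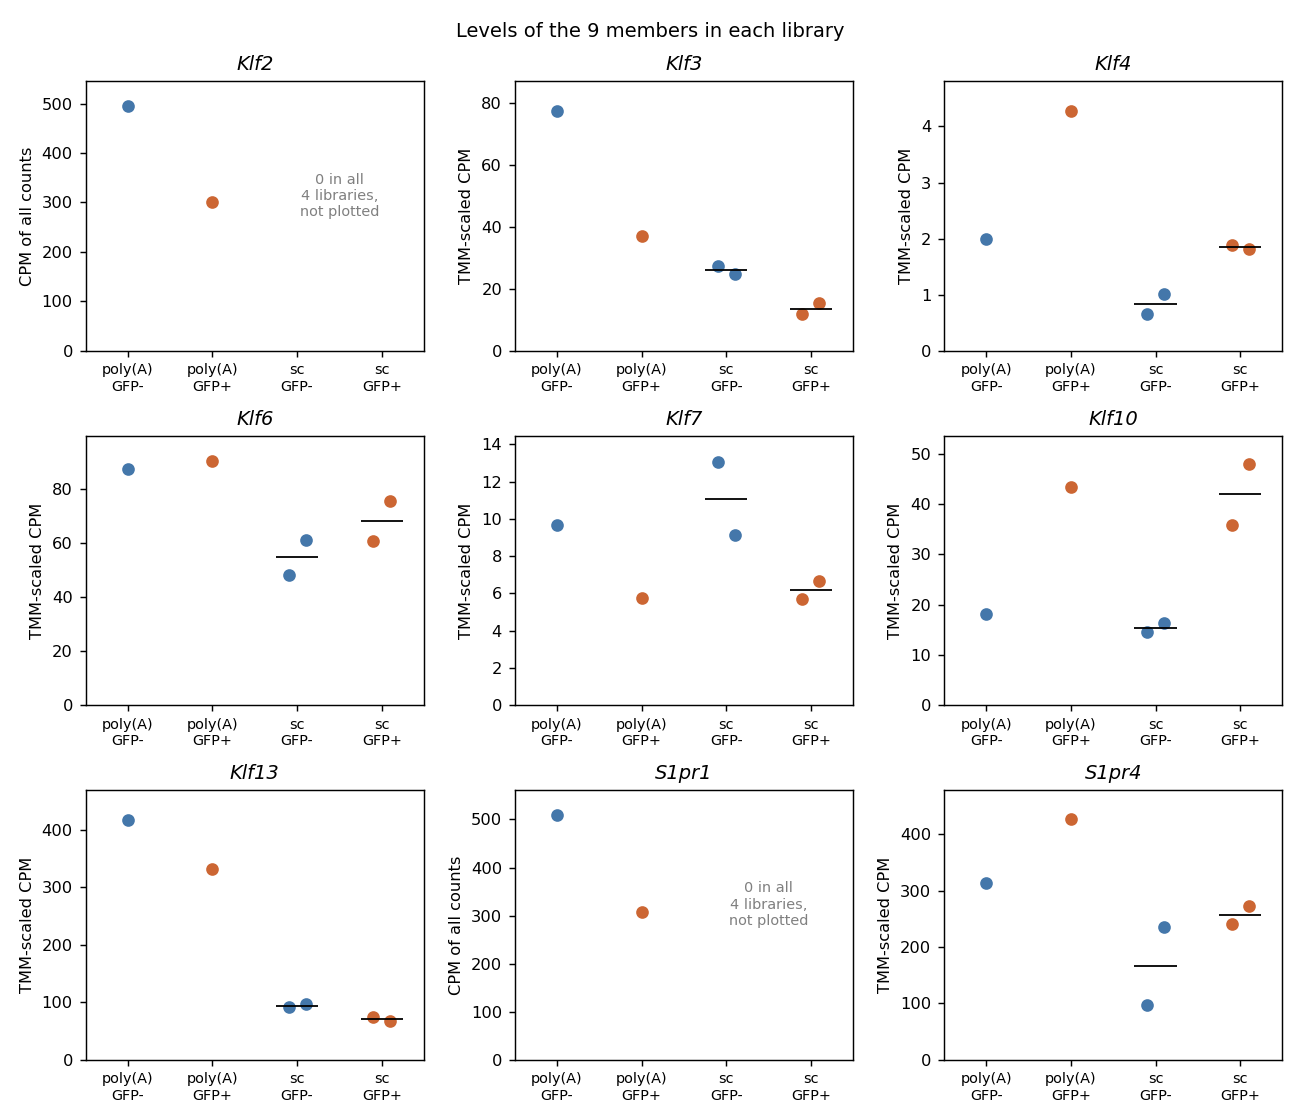
Level of each member (y axis, TMM-scaled CPM, or CPM of all counts for Klf2 and S1pr1) in each library (x axis, by protocol and population). Points are libraries and bars the mean of the 2 single-cell libraries (sc). Klf10 is higher and Klf3 lower in GFP+ libraries of both protocols, and Klf2 and S1pr1 have points in the poly(A) pair alone.

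Compared per length, in RPKM (CPM of all counts per kilobase), the members covered a wide range. In GFP- replicate 20 Klf2 was highest with 273 RPKM, followed by S1pr4 with 221, S1pr1 with 168, Klf13 with 110, Klf3 with 56.5, Klf6 with 35.1, Klf7 with 12.2, Klf10 with 10.04 and Klf4 with 1.11 RPKM. In GFP+ replicate 19 S1pr4 came first with 309 RPKM, ahead of Klf2 with 166, S1pr1 with 101 and Klf13 with 90.0 RPKM. Klf6 (37.1 RPKM) stood above Klf3 (27.8 RPKM) there, and Klf10 (24.7 RPKM) above Klf7 (7.43 RPKM), both in reverse of the GFP- order.

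With 1 library each, the order in the poly(A) pair has no spread to judge it by. Each single-cell library of GFP- Treg had the order S1pr4, Klf13, Klf6, Klf3, Klf7, Klf10 and Klf4. Taken over these libraries, the ranges of Klf3 and Klf7 overlapped, as did those of Klf7 and Klf10. In GFP+ Treg the order by mean was S1pr4, Klf13, Klf6, Klf10, Klf3, Klf7 and Klf4. There Klf10, at 8.34 and 12.5 RPKM, stood above Klf3, at 3.60 and 5.21 RPKM. Klf13 and Klf6 changed places between GFP+ replicates 1 and 4. The ranges of Klf3 and Klf7 overlapped, but Klf3 stood above Klf7 within each library. The single-cell table gives no gene length over 3000 for these members, so levels of the long Klf13 and Klf6 transcripts are not on one footing in both protocols.

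**Figure D4:**
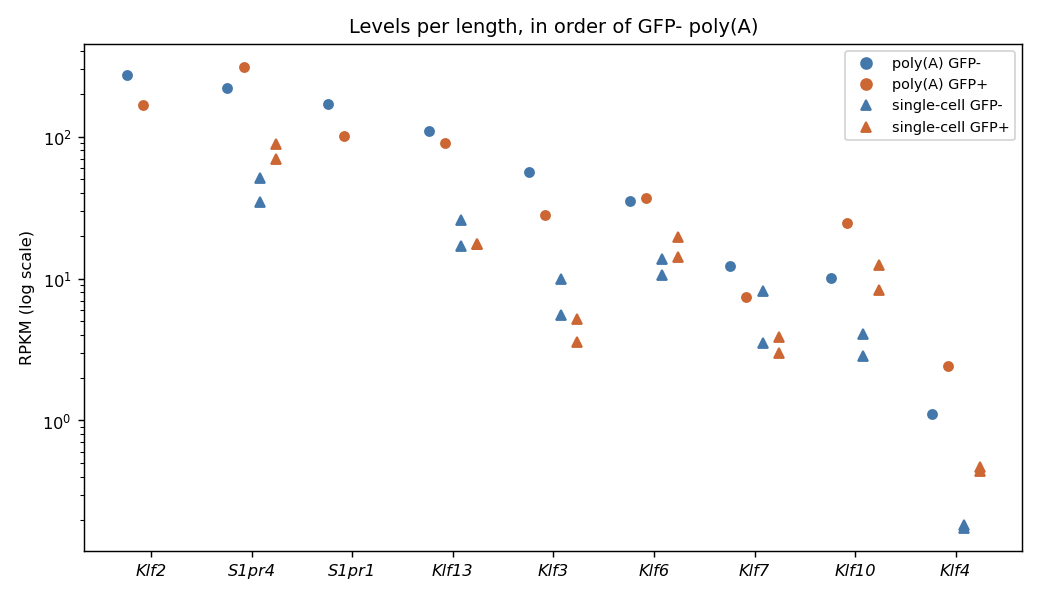
RPKM of each member (y axis, log scale) in each library, with members on the x axis in the order of GFP- replicate 20. Circles are poly(A) and triangles single-cell libraries, and libraries at 0 are left out. S1pr4 is the highest member in every single-cell library, and Klf4 the lowest with values above 0.

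A dependence of the population effect on the protocol was not found. For the 7 members the interaction of population and protocol lay between -0.09 and 0.27 on the log2 scale, with standard errors of 0.64 to 0.88. No gene of 10523 had an interaction with edgeR (adjusted p under 0.05, 0%, with 24 genes at an unadjusted p under 0.05), and DESeq2 and limma-voom also called 0. With 2 residual degrees of freedom and these errors, even a large dependence on the protocol could go undetected.

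Of 19 other KLF and Sp factors, the related family that binds GC boxes, 9 were tested. Of these, 2 were higher and 1 lower against 9.81% and 3.68% of all tested genes, with a list median of -0.09. Such a short list cannot be set against those shares. Klf8, a CtBP-binding repressor, was rare in GFP- Treg, with 0.478 CPM in the poly(A) and 0.652 and 0.380 CPM in the single-cell libraries. It had 2.99 CPM and 2.78 and 2.76 CPM in GFP+ Treg, a rise of 2.48 ± 0.36 on the log2 scale (edgeR, adjusted p = 0.00234). Klf11, the closest relative of Klf10, rose by 1.11 ± 0.30 (edgeR, adjusted p = 0.0423), with poly(A) levels of 4.98 and 13.1 CPM and single-cell levels of 2.97 and 1.65 against 4.34 and 4.64 CPM. This call was lost with 4 of the 6 libraries left out in turn, at edgeR adjusted p of 0.396 (GFP- replicate 20), 0.419 (GFP+ replicate 19), 0.121 (GFP+ replicate 1) and 0.108 (GFP+ replicate 4). Sp6 fell by 1.40 ± 0.24 on the log2 scale (edgeR, adjusted p = 0.00561). Its levels went from 92.9 to 41.9 CPM in the poly(A) and from 72.7 and 95.6 to 24.8 and 33.6 CPM in the single-cell libraries. Every GFP+ library of Sp6 lay below every GFP- library of its protocol, as for 19.3% of tested genes. Sp4 (-0.66 ± 0.30), Sp3 (-0.41 ± 0.32) and Klf9 (0.19 ± 0.24) did not pass. Klf12, another CtBP-binding repressor, was too rare in the single-cell libraries to be tested and was named after its counts were seen, 17 in the GFP- and 151 in the GFP+ poly(A) library, and 1 and 0 against 6 and 8 in the single-cell libraries.

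Of the other S1P receptors, S1pr2 and S1pr5 lack single-cell counts. S1pr2, whose protein holds migrating lymphocytes back where S1pr1 draws them on, had 896 counts in GFP- replicate 20 and 1826 in GFP+ replicate 19, or 32.9 and 64.4 CPM of all counts. Its log2 ratio was 0.97 (95% interval 0.85 to 1.09, counting error only), opposite in sign to that of S1pr1 in the same pair. S1pr5, the exit receptor of natural killer cells, had 2 and 27 counts, and S1pr3 had a log2 fold change of -0.51 ± 0.34 in the 6 libraries (edgeR, adjusted p = 0.388).

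Among genes of S1P synthesis, breakdown and transport 11 of 16 were tested. Of these, 1 was higher and 1 lower against 9.81% and 3.68% of all tested genes, with a list median of -0.05. They are too few to be set against those shares. Ppap2b, now called Plpp3 and encoding a lipid phosphate phosphatase that removes S1P outside cells, rose by 3.32 ± 0.42 (edgeR, adjusted p = 0.00119). Poly(A) levels were 0.456 CPM in GFP- and 5.98 CPM in GFP+ Treg, and single-cell levels 0.362 and 0.760 CPM against 3.11 and 5.22 CPM, in GFP+ libraries in which the myeloid markers were higher as well. Acer2, a ceramidase that supplies sphingosine, fell by 1.93 ± 0.40 on the log2 scale (edgeR, adjusted p = 0.0132), from 5.65 to 2.05 CPM in the poly(A) and from 4.06 and 4.18 to 0.409 and 1.23 CPM in the single-cell libraries. The S1P lyase gene Sgpl1 (0.44 ± 0.21) and the S1P phosphatase genes Sgpp1 (-0.62 ± 0.24) and Sgpp2 (-1.13 ± 0.51) did not pass, though Sgpp2 did without the filter on low counts (edgeR, adjusted p = 0.00611).

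Genes that act on the receptors' signal or their removal from the surface gave no call with edgeR. Past 0.05 were 0 of 9 tested genes, against 13.5% of all tested genes, and 9 are too few to be set against that share. At an unadjusted p under 0.05 there were 0, a cut for which no share of all genes is given here. The list median was 0.18. Cd69, whose protein pulls S1PR1 off the cell surface, had -0.27 ± 0.25. Gna13, which couples to S1PR2, had 0.36 ± 0.26. Gnai2, the main partner of S1PR1, had 2042 CPM of all counts in GFP- replicate 20 and 2823 in GFP+ replicate 19, a log2 ratio of 0.47.

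Upstream of Klf2, 0 of 7 tested genes passed with edgeR, against 13.5% of all tested genes, and the list median was -0.27. The list is too short to be set against that share. At an unadjusted p under 0.05 there were 2 genes, a cut without a given share of all genes, so this count has no background. These were Smurf1, a ubiquitin ligase that marks KLF2 for degradation (-0.56 ± 0.21, adjusted p = 0.120), and Elf4, which activates Klf2 and Klf4 in CD8 T cells (0.62 ± 0.26, adjusted p = 0.161, edgeR). The kinase gene Map3k3, which feeds the ERK5 and MEF2 route to Klf2, had -0.47 ± 0.22. Foxo1, Map2k5 and Mef2d lack single-cell counts. In the poly(A) pair Foxo1 had 546 and 366 CPM of all counts, a log2 ratio of -0.58 that 12.2% of genes matched or undercut, while Map2k5 (-0.05) and Mef2d (-0.17) lay near the median of the pair.

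Of the tested trafficking genes known to change when mouse T cells lose Klf2, Ccr7 and Cxcr3 moved in the known direction and Itgb7 in the other. Whether Klf2 has a part in these differences was not tested. Ccr7, a homing receptor for lymph nodes that such cells lose, had 370 CPM in the GFP- and 47.2 CPM in the GFP+ poly(A) library, and 1185 and 524 CPM against 45.2 and 43.2 CPM in the single-cell libraries. Every GFP+ library lay below every GFP- library of its protocol, as for 19.3% of tested genes. The change was -3.84 ± 0.44 on the log2 scale (edgeR, adjusted p = 0.000733). Cxcr3, a receptor for inflammatory chemokines that such cells gain, had 68.5 CPM in the GFP- and 194 CPM in the GFP+ poly(A) library, and 96.8 and 167 CPM against 558 and 739 CPM in the single-cell libraries. It rose by 2.03 ± 0.33 on the log2 scale (edgeR, adjusted p = 0.00413). Itgb7, an integrin chain lowered by Klf2 loss, had 0.73 ± 0.31, in the other direction and short of the threshold (edgeR, adjusted p = 0.173), but past 0.05 with DESeq2 (adjusted p = 0.0454) and with limma on the authors' log2 RPKM (adjusted p = 0.0337). Ccr3, which Klf2-deficient T cells gain, had 25 counts in GFP- replicate 20 and 1243 in GFP+ replicate 19, without a replicate check. Of the 3 tested genes 1 was lower and 1 higher, against 3.68% and 9.81% of all tested genes, with a median of 0.73. These genes were chosen with earlier results of these data known and are too few to be set against those shares. Ccr3 is also expressed by myeloid cells, whose markers were higher in GFP+ replicate 19.

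KLF cofactors and repressor partners gave 0 calls among 9 tested genes with edgeR, against 13.5% of all tested genes, with a list median of -0.31. This list, too, is too short to be set against that share. At an unadjusted p under 0.05 there were 3 genes, and again no share of all genes is given for this cut to set them against. These were the acetyltransferase gene Kat2b (-0.88 ± 0.31, adjusted p = 0.106), the corepressor gene Ctbp2 (1.64 ± 0.59, adjusted p = 0.111) and the deacetylase gene Hdac1 (-0.64 ± 0.27, adjusted p = 0.167, all edgeR). DESeq2 put Kat2b past 0.05 (adjusted p = 0.0464), as did edgeR without the filter (adjusted p = 0.0219), which also put Ctbp2 past it (adjusted p = 0.0474). Among cell cycle inhibitors and other known KLF targets, 3 of 5 rose and none fell, with a median of 2.29. Over all tested genes the shares were 9.81% and 3.68%. This list was chosen with earlier results of these data known and is too short to be set against those shares. Cdkn1a, the inhibitor p21, had 1.15 CPM in the GFP- and 9.13 CPM in the GFP+ poly(A) library, and 1.09 and 2.79 CPM against 14.6 and 14.5 CPM in the single-cell libraries. It rose by 2.98 ± 0.34 on the log2 scale (edgeR, adjusted p = 0.000733). Cdkn2c rose by 2.29 ± 0.28, and Ccl5, the chemokine under KLF13, by 2.43 ± 0.42, while Klf13 itself was at -0.38. Cdkn1b (-0.35 ± 0.25) and Cdkn1c (1.14 ± 0.37, edgeR, adjusted p = 0.0840) did not pass. Cdkn1c passed 0.05 with limma-voom (adjusted p = 0.0351) and with edgeR without a filter on low counts (adjusted p = 0.0374).

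**Figure D5:**
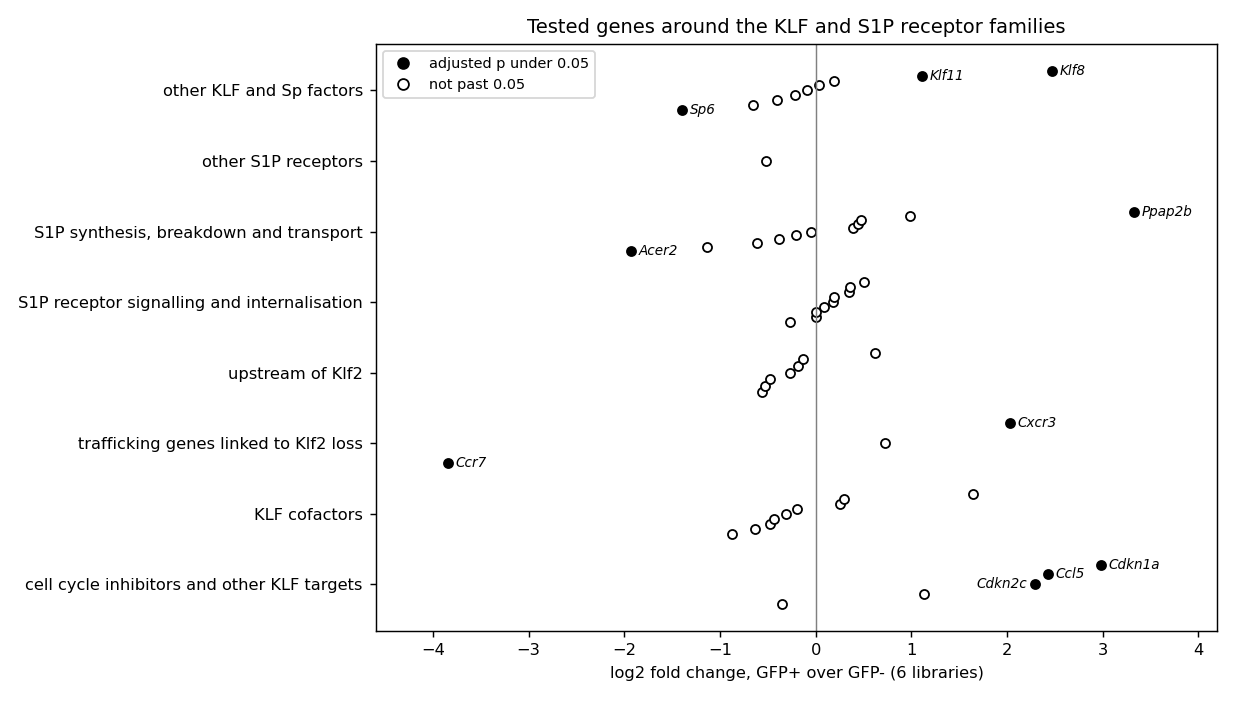
Log2 fold change of GFP+ over GFP- in the 6 libraries (x axis) for each tested gene of 8 lists around the KLF and S1P receptor families (y axis), filled where the adjusted p is under 0.05. Calls fall in both directions among KLF and Sp factors (Klf8, Klf11, Sp6), S1P metabolism (Ppap2b, Acer2) and trafficking genes (Ccr7, Cxcr3), and none among S1P receptor signalling, Klf2 upstream genes and cofactors.

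The genes with the most similar pattern were sought for the 2 called members, by the root-mean-square difference of log2 CPM centred within each protocol over 6 libraries, among 5948 named genes of at least 10 CPM. Nearest to Klf3 were Mbnl3, a splicing regulator, at 0.047, Sh2b3, an adaptor that dampens cytokine signals, at 0.061, and Mpp1, a membrane scaffold gene, at 0.065. Their log2 fold changes were -0.96 ± 0.23, -1.03 ± 0.22 and -0.96 ± 0.23. Nearest to Klf10 were the transcription factor gene Tox2 at 0.063, the lysosomal sulfatase gene Arsb at 0.082 and Tbx21, which encodes T-bet, at 0.082, with log2 fold changes of 1.41 ± 0.26, 1.24 ± 0.22 and 1.28 ± 0.24. The median difference over all candidates was 0.550 from Klf3 and 0.780 from Klf10. All 6 of these genes lost their call without GFP- replicate 20 or without GFP+ replicate 19, with edgeR adjusted p of 0.0543 to 0.273.

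Klf3, Klf7, Klf10, Klf13 and several of the other named genes, Sp6 among them, overlap other annotated RefSeq loci, and since the sources do not say whether counting used strand, some of their reads may belong to those loci.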

How the data were processed

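RNA of sorted mouse Treg was sequenced in 6 libraries, 3 per population. Messenger RNA was obtained, per the labels' protocols, by poly(A) selection or a single-cell approach. The authors deposited raw counts per Entrez gene and gene lengths in 1 table per protocol, and log2 RPKM per library, used only as an alternative. Per the submitters' processing notes the tools were Subread, featureCounts and edgeR and the build mm9; their versions and the strand setting were not given.

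Counts were analysed with edgeR 4.0.16, limma 3.58.1 and DESeq2 1.42.0 in R 4.3.3. The filterByExpr step left 10523 genes, libraries were scaled by TMM, and the quasi-likelihood F-test fitted with population and protocol (3 residual degrees of freedom), adjusted by Benjamini-Hochberg over all tested genes. Standard errors derive from the F statistic, and within-protocol log2 ratios use a prior count of 2. Klf2 and S1pr1 have counts in 1 library per population and were given ratios of CPM of all counts with exact binomial intervals. Alternatives were DESeq2 size factors, DESeq2, limma-voom, no filter on low counts, no protocol term, single-cell libraries alone, limma on the log2 RPKM, and each library left out. The fits were tested on simulated counts. There edgeR recovered 20% of genes with a log2 change of 1 and 93% of those with 2. Of its calls 4.24% were genes left unchanged. The interaction test recovered 0% and 5%. A gene that did not pass can therefore still differ by a log2 change of 1. GFP- replicates 2 and 5, and GFP+ replicates 1 and 4, differed beyond sampling noise (chi-square 183 and 88.9 per degree of freedom). P-values reflect the spread over these libraries.

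The text names the 9 members, Prdm1, up to 5 members of each gene list with the smallest p and up to 3 that did not pass, list members of at least 10 CPM without single-cell counts, and the 3 nearest genes of a called member. Not all of these are described. Some other trafficking genes are not reported here. The members and lists were chosen with earlier results of these data known. Chromosomes and overlapping loci were looked up by Entrez number in RefSeq (GRCm38.p6).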

Additional observations from a re-analysis of the deposited data

How the results depend on the processing

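Klf10 was higher and Klf3 lower under every alternative run. Klf10 lost its call only without the protocol covariate (edgeR, adjusted p = 0.191). Klf3 lost its call there (edgeR, adjusted p = 0.991), in the single-cell libraries alone and without GFP- replicate 20, GFP+ replicate 19 or GFP+ replicate 1. The members higher and lower in GFP+ Treg, 1 and 1, became 1 and 2 with DESeq2 size factors in edgeR, 2 and 2 with DESeq2, 2 and 1 with limma-voom, 2 and 2 without a filter on low counts, 0 and 0 without the protocol covariate, 1 and 0 in the single-cell libraries alone, and 1 and 2 with limma on the authors' log2 RPKM. The further calls were Klf4 and Klf7. With 1 library left out, 1 to 2 members were higher and 0 to 2 lower.

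Over all genes the 1032 higher and 387 lower calls became 1201 and 714 with DESeq2, 1682 and 818 without a filter, 115 and 24 without the protocol covariate, and 567 and 144 in the single-cell libraries alone. With 1 library left out they ranged from 569 to 1359 higher and from 140 to 797 lower. The cause of these changes was not tested, apart from the fewer samples in the reduced fits. TMM over the poly(A) pair gave -0.69 for Klf2 and -0.70 for S1pr1, and the authors' log2 RPKM, on another scale, -1.004 and -1.28. No gene had a population by protocol interaction under any alternative that could be fitted. No paired analysis was possible because the populations share no replicate numbers and no label pairs their libraries. Depth was lowest for Klf4, with 8 to 25 counts in the single-cell libraries.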
